A study of Homo sapiens with 9 samples.

Results

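The Notch genes NOTCH1, NOTCH2, NOTCH3, JAG1, JAG2, DLL1, RBPJ, HES1 and NRARP were followed in a SLAM-Seq experiment on MCF10A cells, a non-tumorigenic human mammary epithelial line. These receptors, ligands, DNA-binding factor and targets were chosen by name, found through their RefSeq transcripts, and make up 9 of the 26358 genes in the table. In SLAM-Seq, cells take up the uridine analogue 4sU into new RNA, and alkylated 4sU is then read as C in place of T. The conversion rate, the share of T positions read as C, therefore marks transcripts made during the pulse.

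All cells were MCF10A with JUN knocked out, infected with JUN fused to an auxin-inducible degron (JUN-AID) and with the auxin receptor TIR1, so no group had unmodified JUN. The no 4sU control (3 libraries) received no analogue, and its label does not say whether it received DMSO. The DMSO 4sU group (3 libraries) received DMSO and then 100 µM 4sU for 1 h. The IAA 4sU group received 100 µM of the auxin IAA for 1 h, to degrade JUN, before 4sU for 1 h. The 3 deposited IAA columns were identical in all 56868 rows, so they were counted as 1 library and no test was made on IAA. DMSO 4sU against no 4sU asks which transcripts were labelled and whether their total level differed, and IAA against DMSO asks whether labelling differed after JUN depletion.

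Notch receptors sit in the plasma membrane and are cut when a Jagged or Delta-like ligand on a neighbouring cell binds them. The released intracellular part enters the nucleus and joins the DNA-binding protein RBPJ to switch on genes such as HES1 and NRARP. In mammary epithelium the pathway is known for its part in cell fate, and HES1 mRNA is known to be short-lived.

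Library totals ran from 18997637 to 24014195 reads. The median conversion rate over the 6950 genes tested lay between 0.0575% and 0.06% in the no 4sU libraries, between 0.179% and 0.237% in the DMSO 4sU libraries, and was 0.219% in the IAA library. The cells carried the markers of basal mammary epithelium, 8 of 8 above 1 CPM (reads scaled to library size by the authors), with a sum of 1366 to 1762 CPM. Luminal markers were above 1 CPM in 3 of 5 cases (KRT8, KRT18 and GATA3, sum 107 to 149 CPM), fibroblast markers in 1 of 5 (COL1A1, sum 3.66 to 9.97 CPM, COL1A2 at 0), and endothelial markers in 1 of 4 (PECAM1, sum 0.223 to 1.36 CPM, CDH5 and VWF at 0). P-values measure only the spread between these libraries.

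HES1 stood apart from the other Notch genes on both measures. With DMSO and 4sU its conversion rate reached 4.93% ± 1.48 (SD, n = 3) and its total mRNA was 7.29-fold lower than without 4sU. That rate rests on 63 to 90 reads in each library. JAG1 too was labelled beyond the library median. NOTCH1, NOTCH2, JAG2 and RBPJ were labelled, but did not pass the test against that median. NOTCH3, DLL1 and NRARP had too few reads for the main tests.

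Of the receptors, NOTCH1 and NOTCH2 had 415 to 1020 reads in each library and NOTCH3 had few. NOTCH1 (chr9:139388885-139440500, minus strand, GRCh37) had rates of 0.0723%, 0.0386% and 0.0341% without 4sU and 0.201%, 0.190% and 0.288% with DMSO and 4sU. Every DMSO 4sU library lay above every no 4sU library, with a change of 1.49 in log2(rate + 0.05%) (SE 0.27, limma adjusted p = 0.0027). NOTCH1 mRNA was 20.5, 29.1 and 31.2 CPM without 4sU and 23.3, 27.9 and 25.0 CPM with DMSO and 4sU. These groups overlapped, and the change in log2(CPM + 1) was -0.10 (95% interval -0.56 to 0.36, limma adjusted p = 0.91). In these bulk samples, fewer cells with a transcript and less of it per cell cannot be told apart.

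NOTCH2 (chr1:120454176-120643366, minus strand, GRCh37) had rates of 0.0915%, 0.0460% and 0.0507% without 4sU and 0.237%, 0.241% and 0.179% with DMSO and 4sU. The groups did not overlap, and the change was 1.27 (SE 0.27, limma adjusted p = 0.0049). NOTCH2 mRNA was 29.5, 45.3 and 48.5 CPM without 4sU and 39.2, 42.5 and 47.9 CPM with it, with overlapping groups and a change of 0.06 (95% interval -0.44 to 0.56, limma adjusted p = 0.96). Both receptors sat near the middle of all genes, as 44.6% of tested genes had a higher mean rate than NOTCH1 and 46.2% a higher one than NOTCH2. NOTCH3 (chr19:15269849-15311806, minus strand, GRCh37) had 8 to 16 reads in each library, at 0.333 to 0.715 CPM. Its rate was 0.787% in DMSO 4sU replicate 2 and 0 in the other 6 libraries.

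Of the ligands, which bind the receptor from the neighbouring cell, JAG1 and JAG2 were tested. JAG1 had the higher mean rate with DMSO and 4sU (0.544% ± 0.148 against 0.480% ± 0.098, SD, n = 3), but their values overlapped. JAG1 (chr20:10618332-10654647, minus strand, GRCh37) had rates of 0.0388%, 0.0317% and 0.0452% without 4sU and 0.714%, 0.474% and 0.444% with DMSO and 4sU. The groups were far apart, with a change of 2.72 (SE 0.28, limma adjusted p = 0.00027), and 11.2% of tested genes had a higher mean rate. JAG1 mRNA was 45.3, 34.3 and 39.1 CPM without 4sU and 24.3, 30.2 and 30.9 CPM with DMSO and 4sU. Each 4sU library lay below each library without it, yet the change of -0.50 did not pass the threshold over all genes (SE 0.17, 95% interval -0.87 to -0.13, limma adjusted p = 0.28, unadjusted p = 0.014).

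JAG2 (chr14:105607319-105635161, minus strand, GRCh37) had rates of 0.0988%, 0.262% and 0.131% without 4sU, the highest background among the tested members, and 0.445%, 0.590% and 0.403% with DMSO and 4sU. The groups did not overlap, and the change was 1.36 (SE 0.34, limma adjusted p = 0.0099). JAG2 mRNA was 11.8, 11.3 and 9.42 CPM without 4sU and 16.3, 8.91 and 13.5 CPM with it, so the groups overlapped, with a change of 0.17 (95% interval -0.33 to 0.66, limma adjusted p = 0.85). DLL1 (chr6:170591294-170615653, minus strand, GRCh37), a Delta-like ligand, had 3 to 26 reads in each library. Its rate was 0 in all no 4sU libraries and 2.63%, 0 and 0.355% with DMSO and 4sU. Its level was 0.742, 1.16 and 1.05 CPM without 4sU and 0.141, 0.583 and 0.448 CPM with DMSO and 4sU. The DLL1 groups did not overlap, but with all genes kept in the fit the change was -0.54 (limma adjusted p = 0.31).

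RBPJ (chr4:26165077-26436753, plus strand, GRCh37), which carries the cleaved receptor on DNA, had rates of 0.0293%, 0.0484% and 0.0333% without 4sU and 0.361%, 0.540% and 0.204% with DMSO and 4sU. The groups were apart although the DMSO 4sU libraries spread widely, and the change was 2.19 (SE 0.34, limma adjusted p = 0.0016). RBPJ mRNA was 62.7, 54.1 and 55.4 CPM without 4sU and 63.1, 61.5 and 56.7 CPM with it, a change of 0.04 with overlapping groups (95% interval -0.28 to 0.36, limma adjusted p = 0.96). RBPJ has processed pseudogene copies in the genome, so how its reads were shared among them is uncertain.

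HES1 (chr3:193853937-193856521, plus strand, GRCh37), a repressor that Notch induces, was counted over a 382-base interval at its 3′ end. Its promoter runs from 250 bases before to 50 bases after the RefSeq start, on the plus strand at chr3:194135898-194136197 (GRCh38.p14). It is printed because it holds matches to TGGGAA, the RBPJ motif searched, in capitals.
HES1 promoter: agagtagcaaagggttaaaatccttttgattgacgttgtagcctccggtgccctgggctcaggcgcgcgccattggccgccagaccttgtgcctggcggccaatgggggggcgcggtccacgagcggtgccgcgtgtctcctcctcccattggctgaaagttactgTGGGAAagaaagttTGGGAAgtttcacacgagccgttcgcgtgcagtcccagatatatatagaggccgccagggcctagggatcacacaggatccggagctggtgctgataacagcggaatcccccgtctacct
The matches to TGGGAA begin 84 and 70 bases before the start, 14 bases apart and in the same orientation. Only these exact letters were searched, so RBPJ sites with other letters are not marked, and the matches need not be the sites used. This motif, searched on both strands, was in 24.0% of the 35116 RefSeq promoters of this length, and 3.8% held at least 2 matches. The promoter table held 12 promoters for 8 of the 9 genes (all but DLL1), and 2 of the 12 held the motif. The other was a promoter of RBPJ, of which 69 bases on the plus strand at chr4:26319621-26319689 (GRCh38.p14) are printed because they hold 1 match on each strand, in capitals and 43 bases apart.
RBPJ promoter: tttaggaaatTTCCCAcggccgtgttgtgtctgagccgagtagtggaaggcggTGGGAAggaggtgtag
The motif TGANTCA of AP-1, the factor that contains JUN, was in 7.71% of all promoters and in 1 of the 12, at the far end of another RBPJ promoter. The TEAD motif GGAATG can overlap the RBPJ motif by its first letters. It was in 14.0% of all promoters and in 0 of the 12.

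HES1 rates were 0.0432%, 0.0464% and 0.0633% without 4sU and 6.64%, 4.11% and 4.04% with DMSO and 4sU. The groups did not overlap, and the change of 5.59 was the largest of the 6 tested members (SE 0.25, limma adjusted p = 6.04e-06). HES1 met the minimum mean of 200 reads (316.7 over the 6 libraries) only through the no 4sU libraries. Its DMSO 4sU libraries, at 63 to 90 reads, were each below that minimum. This p-value and the place of HES1 among all genes therefore rest on few labelled reads. Of the 6950 tested genes, 12 (0.173%) had a higher mean rate. HES1 mRNA was 26.9, 28.8 and 24.8 CPM without 4sU (471 to 645 reads) and 2.96, 3.75 and 4.33 CPM with DMSO and 4sU (63 to 90 reads). All libraries with 4sU lay far below those without, from a mean of 26.8 ± 2.01 to one of 3.68 ± 0.688 CPM (SD, n = 3). The change in log2(CPM + 1) was -2.61 (SE 0.18, 95% interval -3.01 to -2.22, limma adjusted p = 0.00025), which ranked 9 by size among the 191 genes that fell, whose median was -1.23. A lower level of the transcript in the cells and a loss of its converted reads before counting cannot be told apart in this design.

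NRARP (chr9:140194083-140196723, minus strand, GRCh37), which dampens Notch signalling and overlaps an exon of a gene on the opposite strand, had 6 to 22 reads in each library. Its rate was 0 in all no 4sU libraries and 2.58%, 0.694% and 0.441% with DMSO and 4sU. All DMSO 4sU libraries were above 0, on 6 to 21 reads, too few for the main test. Fits with no minimum of reads called NRARP higher, but a call on so few reads cannot be relied on. NRARP mRNA was 0.791, 0.983 and 0.526 CPM without 4sU and 0.564, 0.25 and 1.05 CPM with it, and these groups overlapped.

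Over the 9 genes, 6 were tested for conversion rate and all 6 were higher with DMSO and 4sU, where 66.3% of all tested genes were. Their median change was 1.84 and that of all tested genes 1.13. With each rate divided by the median of its library, 2 of the 6 were higher, where 7.61% of all genes were. These were HES1 (4.30, SE 0.21, limma adjusted p = 9.35e-05) and JAG1 (1.56, SE 0.24, limma adjusted p = 0.0091). The HES1 value again rests on 63 to 90 reads in each DMSO 4sU library. After division by the library median RBPJ was at 1.08 (limma adjusted p = 0.097), NOTCH1 at 0.36 (0.48), NOTCH2 at 0.06 (0.90) and JAG2 at -0.10 (0.89). With every gene kept in the fit, NOTCH2 (limma adjusted p = 0.059) and JAG2 (limma adjusted p = 0.11) also missed the threshold without that division.

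In total mRNA 1 of 6 tested members, HES1, was lower with DMSO and 4sU, where 1.68% of all tested genes were. By limma, edgeR and DESeq2 alike 0 members were higher, also at an unadjusted p under 0.05, and JAG1 joined HES1 among those lower at that level. Of all 11352 genes tested, the 3 tools gave 308 to 324 higher and 856 to 888 lower at that level. The members' median change was -0.03 and that of all genes 0.04. Of the 12 genes with a higher rate than HES1, 10 were lower in total mRNA, with a median change of -2.11, and 5 fell at least as much as HES1. Of 595 other genes whose rate differed from that of JAG1 by a factor of 0.8 or closer to 1, in either direction, 3 were lower, with a median of -0.09, and 36 had a change as low as that of JAG1. For RBPJ the same window held 1051 genes, of which 1 was lower, with a median of -0.01.

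**Figure D1:**
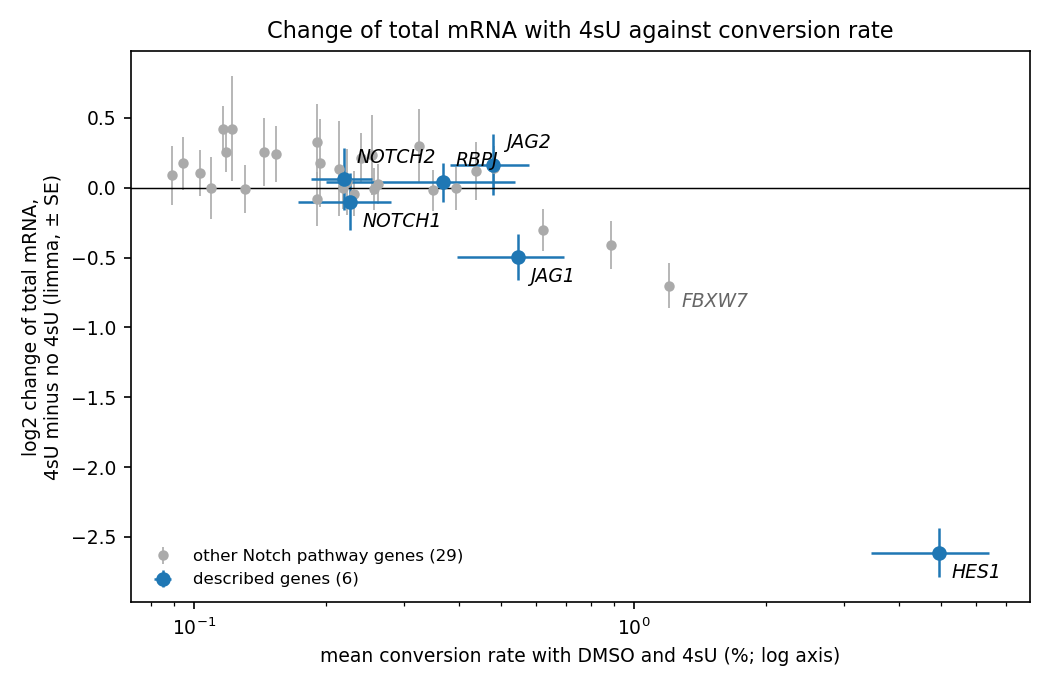
Change of total mRNA with 4sU (log2(CPM + 1), limma, vertical bars ± SE) against mean conversion rate with DMSO and 4sU in % (log axis), for 6 members in blue (horizontal bars ± SD) and 29 other pathway genes in grey. Among the genes drawn HES1 lies alone at 4.93% and -2.61, and the next lowest values are those of FBXW7 (-0.70) and JAG1 (-0.50). Genes not tested for rate are not drawn, among them EP300 (2.68%, -1.32), with a mean of 148 reads.

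Levels of different genes were compared per length of the counted interval, which in 3′-end libraries favours short intervals such as that of HES1. In the no 4sU libraries HES1 was highest, at 70.2 ± 5.27 CPM per kb (SD, n = 3). JAG1 followed at 21.8 ± 3.04, NOTCH1 at 16.5 ± 3.48, RBPJ at 13.9 ± 1.12 and NOTCH2 at 10.9 ± 2.72 CPM per kb. Among these 4, genes next to each other in this order lay within their summed SDs. JAG2 was lower, at 6.32 ± 0.734 CPM per kb, and DLL1 (1.47), NOTCH3 (0.512) and NRARP (0.392) were lowest. In CPM not divided by length, HES1 was not the highest without 4sU. It was at 26.8 CPM, below RBPJ (57.4), NOTCH2 (41.1) and JAG1 (39.5) and close to NOTCH1 (27.0). With DMSO and 4sU, HES1 was at 9.63 ± 1.80 CPM per kb, below JAG1 (15.7 ± 1.98), NOTCH1 (15.6 ± 1.44) and RBPJ (14.7 ± 0.812).

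The total mRNA profile of HES1 over the 7 distinct libraries, in log2(CPM + 1) centred on its mean, was most like those of CXCL2, CLK1, KLF6, NFKBIZ and the transcript NR_026778. Their root mean square differences from HES1 ran from 0.235 to 0.324 among 6952 genes. CXCL2, for example, went from 69.0 ± 11.2 to 8.03 ± 0.465 CPM (SD, n = 3) and had a rate of 7.42% ± 0.220 with DMSO and 4sU. For NRARP the nearest were ZFYVE26, IP6K2, IRX3, HPCAL1 and FAM219B, from 0.129 to 0.157, against a profile whose own spread was only 0.239.

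The annotated 3′ UTR blocks were searched for the AU-rich motif TATTTAT on the transcribed strand, a class of element known to destabilise mRNA. The motif was chosen after the values were seen. JAG1 held 5 matches, NOTCH1 4, NOTCH3 and NRARP 2 each, and NOTCH2 and DLL1 1 each. HES1 (in a 502-base annotated block), RBPJ and JAG2 held 0. Of 6673 such blocks of genes with at least 200 reads, 38.4% held any, but NOTCH3, NRARP and DLL1 were below that depth. The blocks of all members but HES1 and DLL1 were longer than the median of those blocks, 1459 bases. Matches were not set against block length, and no share of genes with 4 or 5 matches was taken. Overlapping or adjoining matches, in capitals, are printed from the members with the most, both on the minus strand in GRCh37, at chr20:10619782-10619811 for JAG1 and chr9:139390363-139390392 for NOTCH1.
JAG1 site: ttagatcatagtttTATTTATATTTATtga
NOTCH1 site: ttttaattttttttagTATTTATTTATgta

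With 1 IAA library, its values could only be set beside the 3 DMSO 4sU libraries. For the conversion rate, 0 of the 5 members compared lay both beyond the DMSO 4sU values and 1 or more log2 units away from their mean, where 8.99% of all genes did. After centring on the library medians, 4 of 5 were beyond the DMSO 4sU values by any distance, where 49.2% of all genes were. NOTCH1 was below them, at 0.115%, with a centred difference of -0.84, which became -1.01 without DMSO 4sU replicate 1. JAG2 (0.318%, -0.63) was also below. JAG1 (0.475%, -0.27) was below only after centring, and its deposited rate lay inside the DMSO 4sU values. NOTCH2 was above, at 0.318% (0.33), and RBPJ, at 0.365%, was inside (-0.05). Each DMSO 4sU library set against the other 3 labelled libraries in the same way had 2 of 5 members outside and 0 past the fold, and 598 to 754 genes past it, against 626 for IAA.

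HES1 had under 100 reads in each labelled library and was compared in rate only without a minimum of reads. Its IAA rate was 2.66%, below all 3 DMSO 4sU libraries, with a centred difference of -0.998, while each DMSO 4sU library differed from the mean of the other 2 by -0.19 to 0.32. Without that minimum 20.7% of 11633 genes were past the fold. NRARP, at 3.89%, was above the DMSO 4sU values (1.84), on few reads. DLL1, also on few reads, was at 0, as it was in DMSO 4sU replicate 2, and fell below the DMSO 4sU values only through centring (-3.08).

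In total mRNA 0 of 6 members were past the fold after IAA, where 0.142% of all genes were, and 1 of 6 was outside the DMSO 4sU values, where 41.4% of all genes were. That 1 was RBPJ, at 66.9 CPM (0.06). HES1 was at 3.49 CPM (-0.11), JAG1 at 27.9 CPM (-0.10), NOTCH1 at 24.9 CPM (-0.10), NOTCH2 at 45.3 CPM (-0.01) and JAG2 at 11.5 CPM (-0.20). These 5 lay inside the DMSO 4sU values.

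A list of 59 other Notch pathway genes, all in the table, was read in the same way. In conversion rate 21 of the 29 tested were higher with DMSO and 4sU and 0 were lower by limma, also at an unadjusted p under 0.05, where 66.3% of all tested genes were higher. Their median change was 1.26 and that of all tested genes 1.13. Divided by the library median, 3 of 29, CREBBP, FBXW7 and SPEN, were higher, where 7.61% of all genes were, and DVL1 was lower. Shares this near to those of all genes say little about the list. In total mRNA 1 of 48 tested was lower by limma and by edgeR and 2 by DESeq2. Of all 11352 genes tested, limma called 191 lower (1.68%), edgeR 203 and DESeq2 399. By limma, edgeR and DESeq2 alike 0 were higher, and at an unadjusted p under 0.05 each gave 3 lower and 1 higher. At that level the 3 tools gave 856 to 888 lower and 308 to 324 higher of all 11352 genes, so these counts say little about the list. The gene lower by all 3 was EP300, a histone acetyltransferase recruited by the Notch complex, from 10.5 ± 2.08 to 3.72 ± 1.05 CPM (SD, n = 3, log2 change -1.32, SE 0.21, limma adjusted p = 0.016). Its adjusted p ran from 0.020 to 0.092 with 1 library left out, and it missed the threshold without no 4sU replicate 2 (0.092), DMSO 4sU replicate 2 (0.066) or DMSO 4sU replicate 3 (0.084). EP300 had a rate of 2.68% ± 1.13 with DMSO and 4sU and 2.69% after IAA, on a mean of 148 reads.

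Among the pathway genes with at least 200 reads, FBXW7, the ubiquitin ligase subunit that marks cleaved Notch for destruction, had the highest rate, at 1.2% ± 0.318. Its total mRNA went from 23.3 ± 2.07 to 14.3 ± 1.46 CPM, a change of -0.70 that missed the threshold (SE 0.16, limma adjusted p = 0.072) and passed it in DESeq2 (adjusted p = 0.0076). CREBBP, the paralog of EP300, followed at 0.885% ± 0.149, then the corepressor SPEN at 0.622% ± 0.122, the ubiquitin ligase ITCH at 0.480% ± 0.185 and HES2 at 0.437% ± 0.381. The lowest rates were those of ADAM10, the protease that cuts the receptor, at 0.0891%, DVL1 at 0.0945%, HDAC1 at 0.103%, KAT2A at 0.11% and HDAC2 at 0.116%. The last 3 encode enzymes that remove or add histone acetyl groups.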

How the data were processed

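SLAM-Seq libraries (QuantSeq 3′ FWD) of MCF10A cells were processed by the authors with the nf-core slamseq pipeline, on hg19 per the submitters' processing notes. The pipeline version and aligner are not given in the sources used here. For each 3′ interval the authors deposited a conversion rate as a fraction, a signal scaled to library size that they call CPM, and the interval length. All nonzero CPM values (100%) were whole multiples of 1 read within 0.01 reads, so read counts were recovered from the deposited signal. Of the rows, 97.7% matched a gene in the RefSeq table (GRCh38.p14, used for names and promoters). Gene positions came from GENCODE on GRCh37. Each gene was taken at its interval with the most reads, because a second NOTCH2 interval with almost no reads would lower its mean rate. This choice was made after the data were seen. The members and lists were chosen with earlier results of these data known.

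For rates, limma 3.58.1 in R 4.3.3 was fitted to log2(rate + 0.0005) over genes with a mean of 200 reads or more and a nonzero rate in 3 or more of the 6 libraries. Total mRNA was tested with limma on TMM-scaled log2(CPM + 1), in genes above 1 CPM in 3 libraries or more. edgeR 4.0.16 and DESeq2 1.42.0 on the recovered counts were alternatives. P-values were adjusted over all tested genes (Benjamini-Hochberg, threshold 0.05). IAA was not tested. Same-numbered libraries deviated together in total mRNA (correlations 0.405, 0.331 and 0.502) but not in rate (-0.0143, -0.0133 and 0.000194). Beside the 9 members, the text names pathway genes past the threshold in total mRNA, those with the 5 highest and 5 lowest rates, and the 5 profiles nearest to HES1 and NRARP. The scripts were tested on simulated data. A further list of cell type markers is not reported here.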

Additional observations from a re-analysis of the deposited data

How the results depend on the processing

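With rates divided by the library median, 2 members instead of 6 were higher with 4sU, JAG2 turned to -0.10 (limma adjusted p = 0.89), and 529 instead of 4605 genes were higher. The other alternatives gave 5 to 7 members (the 5 and the 7 count NRARP, whose rate was 0 in all no 4sU libraries), and leaving out 1 library gave 6 each time. In total mRNA 1 member, HES1, was lower under each alternative run, with a change of -2.91 to -2.38. The genes lower in total mRNA numbered 191, against 112 above 5 CPM, 399 with DESeq2 and 47 to 231 with 1 library left out, the fewest without no 4sU replicate 2. With the replicate block, 6 members were higher in rate and 1 was lower in total mRNA, and 224 genes were lower, and the block changed no call of a member. After IAA, members past the fold in rate numbered 0, against 2 with no minimum of reads (DLL1 and NRARP) and 0 to 1 with 1 library left out. DLL1 was counted only through centring, as its rate of 0 equalled that of DMSO 4sU replicate 2. The total mRNA difference of RBPJ after IAA was 0.14 without TMM. No paired analysis was possible for IAA because it has 1 distinct library. The causes were not tested. Depth limits NOTCH3, DLL1 and NRARP, at 3 to 26 reads, and HES1 in the labelled libraries.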
